A study of Caenorhabditis elegans with 6 samples.

Results

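Glutathione S-transferases and the genes that make and recycle glutathione were followed in *C. elegans* treated with pRJ-Fr.5, the fraction of protease-treated royal jelly that methanol elutes from a reversed-phase column. The genes were chosen by name alone. They are all genes whose symbol is *gst*, *gstk* or *gsto* with a number, together with *gcs-1*, *gss-1*, *gsr-1* and *skn-1*. The annotation holds 53 such genes, of which 52 had a probe on the array (76 of 43603 probes), and 46 had a probe above background on all 6 arrays, among 16049 genes with such a value. The remaining gene, *gst-4*, is paired with no probe in the tables used here and was not analysed here.

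The samples were whole wild-type hermaphrodites of the Bristol N2 strain, fed UV-irradiated *Escherichia coli* OP50. The pRJ-Fr.5 group was exposed to the fraction for 24 h from the larval 4 (L4) stage, and the control group was kept for the same 24 h without it. The labels state a dose of 25 mg/ml, while the methods of the study give the same figure in µg/ml. Each group had 3 arrays of total RNA labeled with a single dye, and nothing in the labels states that the 3 came from separate cultures, so that the p-values measure the spread between these samples.

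Glutathione is a small peptide of glutamate, cysteine and glycine that protects cells against oxidants and foreign compounds. Glutathione S-transferases couple it to reactive molecules, which can then be exported. In the nematode, SKN-1, the counterpart of the mammalian Nrf factors, acts in the intestine to induce both the enzymes of glutathione synthesis and many transferases under oxidative stress, and *gcs-1* and *gst-4* are its best-known targets.

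Expression is given as log2 of the signal of a gene minus the 75th percentile of its array. A fold change is pRJ-Fr.5 minus control on this log2 scale, so that a positive value means higher expression with pRJ-Fr.5. A gene was taken as changed at an adjusted p under 0.05 in limma's test, with Benjamini-Hochberg adjustment over all 16049 genes. With 3 arrays against 3, an exact permutation test of a single gene cannot go below p = 0.1.

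Replicates 1 and 2 of both groups were on slide 1, and replicate 3 of both groups was on slide 2. The arrays were not of equal quality. Control replicate 3 had 27729 probes above background, and the other 5 arrays had 32820 to 34549. It held 207 of the 239 spots marked as outliers, and each other array held 5 to 9. Its negative control spots had an SD of 5.42 units of intensity, and those of the other arrays 1.23 to 1.67. Of the 76 probes of the glutathione genes, 68 to 69 were above background on the pRJ-Fr.5 arrays, and 69, 70 and 60 on control replicates 1, 2 and 3. Of 25 tissue markers, 24 had a value, and 3 of them fell, whereas 19.1% of all genes did. These were *act-5* (-0.42) and *ifb-2* (-0.22) of the intestine and *spe-11* (-0.67) of sperm. The mean of the 4 intestinal markers was 1.53 to 1.58 on the pRJ-Fr.5 arrays and 1.65 to 1.74 on the control arrays, whereas *ges-1* (0.06) and *elt-2* (-0.05), which also define the intestine, did not pass the test. The mean of the 4 neuronal markers was 0.59 to 0.61 with pRJ-Fr.5 and 0.63 to 0.68 in control. That of the 2 sperm markers with a value was -4.56 to -4.27 with pRJ-Fr.5 and -3.82 to -3.13 in control. For the other tissues the ranges of the groups overlapped. The part of these shifts in the results below was not tested. In RNA of whole worms, fewer cells of a type and less RNA per cell cannot be told apart.

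In pRJ-Fr.5-treated worms, 7 of the 46 glutathione genes changed, 6 of them lower and 1 higher. The count and its split moved with the processing. There were 3 lower and 4 higher with the arrays shifted to the median, 3 lower and 2 higher with normexp background correction, and 8 lower and 0 higher with a shift to the percentile of kept probes. Without control replicate 3 only *gst-6* passed, and without pRJ-Fr.5 replicate 1 there were 16 genes. Expression of *gst-26*, *gsto-1*, *gst-6*, *gst-28*, *gst-23* and *gst-40* fell to between 0.65 and 0.84 of the control level, and that of *gst-41* rose to 1.33 of it. Neither the enzymes of glutathione synthesis and recycling nor *skn-1* passed the test. The share that changed was 15.2%, against 29.8% of all genes tested. For decreases the shares over all genes were 19.1%, and for increases 10.7%. None of the 46 glutathione genes with a value reached the 1.8-fold change that the methods set as a limit of size, which 3.45% of all genes did.

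The fold changes of the 46 genes lay between -0.63 and 0.62. There were 21 positive and 25 negative values, and the median was -0.02, against 0.03 over all genes. The median size of the change without regard to sign was 0.23, against 0.18 over all genes. The median standard error was 0.10 for these genes and 0.08 for all genes. The sizes of the changes were thus close to those over all genes, and whether they differ was not tested. In 19 of the 46 genes (41.3%) the groups did not overlap, 6 of them higher and 13 lower with pRJ-Fr.5. This was so for 49.8% of all genes, with 24.6% higher and 25.2% lower. With the p-value left unadjusted, 23 of the 46 glutathione genes were past 0.05 in limma, against 43.9% of all genes. In the methods' t-test 11 of the 46 were past it, against 39.7% of all genes.

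**Figure D1:**
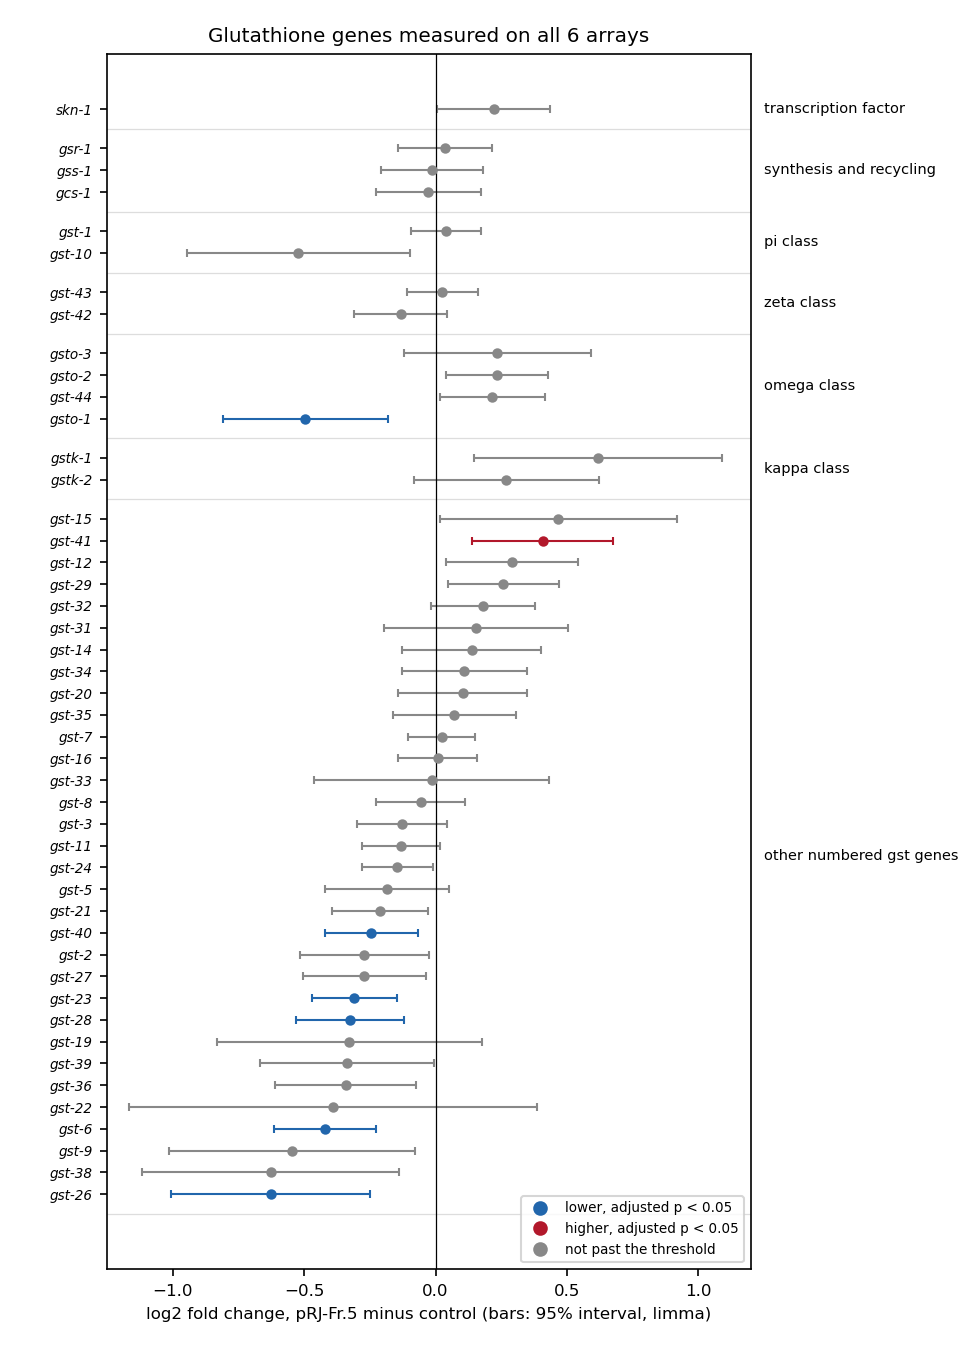
Log2 fold change (pRJ-Fr.5 minus control) of the 46 glutathione genes measured on all 6 arrays, grouped by role, with the 95% interval of limma (n = 3 arrays in each group). Blue points are the 6 genes that fell, the red point is *gst-41*, which rose, and the values range from -0.63 to 0.62.

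The first step of glutathione synthesis is carried out by glutamate-cysteine ligase, encoded by *gcs-1*, which sets the rate of the pathway. Its log2 expression was 0.81, 0.75 and 0.67 on the pRJ-Fr.5 arrays, against 0.70, 0.69 and 0.92 on the control arrays. Control replicates 1 and 2 lay within the range of the treated arrays, and control replicate 3 lay above it. The fold change was -0.03 (SE 0.08, 95% interval -0.23 to 0.17, adjusted p = 0.812 in limma).

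Glutathione synthetase, encoded by *gss-1*, adds the glycine. Its expression was 2.77, 2.67 and 2.59 with pRJ-Fr.5 and 2.59, 2.68 and 2.81 in control, so that the groups overlapped almost completely. The fold change was -0.01 (SE 0.08, interval -0.21 to 0.18, adjusted p = 0.905 in limma). Glutathione reductase, encoded by *gsr-1*, returns oxidized glutathione to its reduced form. The mean over its 3 probes was 3.59, 3.54 and 3.42 with pRJ-Fr.5 and 3.42, 3.45 and 3.57 in control, and the fold change was 0.04 (SE 0.07, interval -0.14 to 0.21, adjusted p = 0.727 in limma). Its 3 probes taken singly gave 0.03, 0.05 and 0.03.

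For these 3 enzymes the data thus bound the change rather than show its absence, and the intervals leave room for a decrease of up to 0.23 or an increase of up to 0.21 on the log2 scale. Without control replicate 3 the fold changes were 0.05 for *gcs-1*, 0.04 for *gss-1* and 0.08 for *gsr-1*, with adjusted p-values of 0.662, 0.731 and 0.474 in limma. The signs of *gcs-1* and *gss-1* were therefore not determined, and both also turned positive when the arrays were shifted to the median.

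The transcription factor gene *skn-1* had a mean over 3 probes of -1.39, -1.30 and -1.40 on the pRJ-Fr.5 arrays and -1.57, -1.44 and -1.75 on the control arrays. Every treated array was higher than every control array, with a fold change of 0.22 (SE 0.09, interval 0.0046 to 0.44) that did not pass after adjustment (adjusted p = 0.108 in limma). Control replicate 3 set much of this value. On 1 of the 3 probes, A_12_P140800, that array read 0.75, against 1.67 and 1.75 on control replicates 1 and 2 and 1.82 to 1.86 on the pRJ-Fr.5 arrays. The other probes gave fold changes of 0.13 and 0.09, and without control replicate 3 the gene value was 0.14 (adjusted p = 0.245 in limma).

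**Figure D2:**
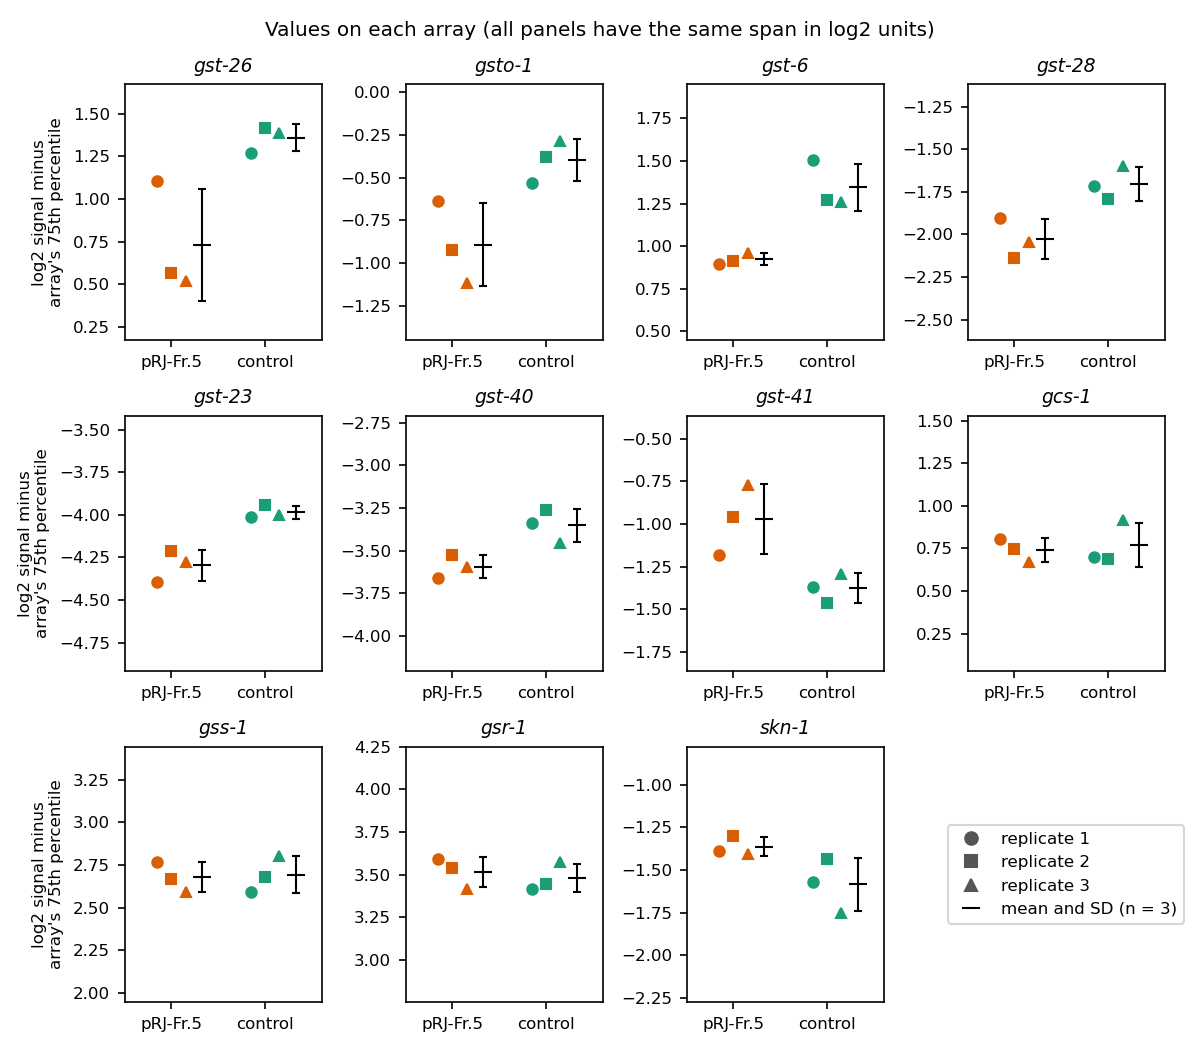
Log2 signal minus the 75th percentile of the array for the 7 glutathione genes that changed and for *gcs-1*, *gss-1*, *gsr-1* and *skn-1*, with 1 point per array and the mean and SD of each group (n = 3). The groups do not overlap in the 7 genes that changed or in *skn-1*, and they overlap in *gcs-1*, *gss-1* and *gsr-1*.

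The 4 omega-class genes are *gsto-1*, *gsto-2*, *gsto-3* and *gst-44*. Omega-class enzymes carry a cysteine in the active site and work as thiol transferases and reductases. Among them *gsto-1*, which is expressed in the intestine, fell, and the other members had positive fold changes that did not pass the test. Expression of *gsto-1* was -0.64, -0.92 and -1.12 with pRJ-Fr.5, against -0.53, -0.38 and -0.28 in control. Every treated array was below every control array, with pRJ-Fr.5 replicate 1 nearest to the controls. The decrease amounted to -0.50 (SE 0.13, adjusted p = 0.0323 in limma), or 0.71 of the control level. When any array other than pRJ-Fr.5 replicate 1 was left out, the fold change was -0.56 to -0.38 and the adjusted p was 0.0549 to 0.106 in limma. Of the 4 intestinal markers, *act-5* (-0.42) and *ifb-2* (-0.22) fell in the same worms, and *ges-1* (0.06) and *elt-2* (-0.05) did not pass the test.

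The values of *gsto-2*, *gsto-3* and *gst-44* were 0.23, 0.23 and 0.22. In *gsto-2* the groups did not overlap, and the mean over 3 probes was 2.57, 2.77 and 2.78 with pRJ-Fr.5 against 2.55, 2.42 and 2.45 in control (adjusted p = 0.0706 in limma). The 3 probes, annotated to the transcript C02D5.3b, gave 0.19, 0.24 and 0.27. Another 3 probes, annotated to transcripts C02D5.3a and C02D5.3c, were above background on the 3 pRJ-Fr.5 arrays and on 2 of the 3 control arrays, with differences between group means of 0.41 to 0.64 that were not tested. These 3 probes had signals near background and failed detection in the group where they read lower. They therefore add no support to the value of *gsto-2*, which rests on the 3 probes of C02D5.3b.

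The kappa class comprises *gstk-1* and *gstk-2*. In mammals, kappa-class enzymes lie in mitochondria and peroxisomes. The highest fold change of all 46 genes was that of *gstk-1*, at 0.62 (SE 0.20, interval 0.15 to 1.09), and it stayed just outside the threshold (adjusted p = 0.0562 in limma). Its values were 2.03, 2.22 and 2.37 with pRJ-Fr.5, against 1.68, 1.93 and 1.16 in control. The groups did not overlap, and control replicate 3 was the lowest. Without that array the fold change was 0.40 (adjusted p = 0.0919 in limma). For *gstk-2*, the fold change was 0.27 (adjusted p = 0.201 in limma), with -0.60, -0.19 and -0.02 on the pRJ-Fr.5 arrays and -0.46, -0.62 and -0.54 on the control arrays, so that pRJ-Fr.5 replicate 1 lay among the controls.

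The zeta-class genes *gst-42* and *gst-43* encode relatives of maleylacetoacetate isomerase, an enzyme of tyrosine breakdown. Their fold changes were -0.13 (adjusted p = 0.205 in limma) and 0.03 (adjusted p = 0.748 in limma). Thus no change was detected in this class, and for *gst-43* the 95% interval, -0.11 to 0.16, was among the narrowest.

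The pi-class genes were *gst-1* and *gst-10*. The enzyme encoded by *gst-10* conjugates 4-hydroxynonenal, a toxic product of lipid oxidation. Expression of *gst-10*, as the mean over 3 probes, was -0.38, -0.49 and -1.04 with pRJ-Fr.5 and -0.27, -0.03 and -0.04 in control. The treated arrays were all lower, pRJ-Fr.5 replicate 3 by the most. The fold change was -0.52 (SE 0.18), outside the threshold at an adjusted p of 0.0669 in limma. Its 3 probes gave -0.49, -0.61 and -0.46, and when probes were tested singly over all 27518 probes, of which 25% passed, the first of them passed (adjusted p = 0.0289 in limma). By contrast, *gst-1* was nearly even, at 0.04 (interval -0.09 to 0.17, adjusted p = 0.602 in limma).

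The other 32 numbered transferases with a value form the largest group. Of these, 5 fell, 1 rose, and 26 did not pass the test. The share that changed was 18.8%, against 29.8% of all genes, of which 19.1% fell and 10.7% rose. The median fold change of the group was -0.14, against 0.03 over all genes. It had 12 positive and 20 negative values, and 7319 of all 16049 fold changes were negative. The most stable decrease was that of *gst-6*. Its expression was 0.90, 0.92 and 0.96 with pRJ-Fr.5, against 1.50, 1.27 and 1.26 in control. The treated arrays lay close together, below the lowest control array. The fold change was -0.42 (SE 0.08, interval -0.62 to -0.23, adjusted p = 0.00998 in limma), or 0.75 of the control level. It passed in all 18 alternatives that gave a test, with fold changes of -0.48 to -0.34, and it was -0.46 without control replicate 3 (adjusted p = 0.0262 in limma).

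The lowest fold change of the group was that of *gst-26*. Its values were 1.11, 0.57 and 0.52 with pRJ-Fr.5 and 1.27, 1.42 and 1.39 in control. On pRJ-Fr.5 replicate 1 the gene was close to the controls, and on replicates 2 and 3 it was far below them. This gave a fold change of -0.63 (SE 0.16, adjusted p = 0.0272 in limma), which corresponds to 0.65 of the control level. With any array other than pRJ-Fr.5 replicate 1 left out it was -0.67 to -0.52 (adjusted p = 0.0642 to 0.0954 in limma), and without pRJ-Fr.5 replicate 1 it was -0.82 (adjusted p = 0.00198 in limma).

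For *gst-23*, 4 probes were above background, and they gave fold changes of -0.35, -0.32, -0.29 and -0.28. The mean over the probes was -4.39, -4.21 and -4.28 with pRJ-Fr.5, against -4.01, -3.94 and -4.0 in control. Both groups were tight and apart from each other, at a fold change of -0.31 (SE 0.07, adjusted p = 0.0161 in limma). It was -0.29 without control replicate 2 (adjusted p = 0.0683 in limma) and -0.32 without control replicate 3 (adjusted p = 0.0538 in limma), and it passed when any of the other arrays was left out. The signals were low, and with normexp background correction the fold change was -0.18 and did not pass (adjusted p = 0.0893 in limma).

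Expression of *gst-28* was -1.90, -2.14 and -2.05 with pRJ-Fr.5 and -1.72, -1.79 and -1.60 in control, and the fold change was -0.33 (SE 0.09, adjusted p = 0.0315 in limma). The treated arrays were all lower, pRJ-Fr.5 replicate 1 by the least. With any array other than pRJ-Fr.5 replicate 1 left out the fold change was -0.37 to -0.27 (adjusted p = 0.0526 to 0.114 in limma). The smallest decrease that passed was that of *gst-40*, with -3.66, -3.52 and -3.60 in pRJ-Fr.5 and -3.34, -3.26 and -3.45 in control. The groups did not overlap, but the gap between them was narrow. Its fold change was -0.24 (SE 0.07, adjusted p = 0.0475 in limma), and it did not pass when any single array was left out (-0.30 to -0.20, adjusted p = 0.0510 to 0.154 in limma).

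The only increase that passed was in *gst-41*. Its expression was -1.18, -0.96 and -0.77 with pRJ-Fr.5, against -1.37, -1.47 and -1.29 in control. All treated arrays were higher, and pRJ-Fr.5 replicate 1 was again the nearest to the controls. The fold change was 0.41 (SE 0.11, adjusted p = 0.0365 in limma). With any array other than pRJ-Fr.5 replicate 1 left out it was 0.31 to 0.45 (adjusted p = 0.0669 to 0.116 in limma).

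Below the threshold, the fold changes of this group were lowest in *gst-38* (-0.63, adjusted p = 0.0599), *gst-9* (-0.55, adjusted p = 0.0767), *gst-22* (-0.39, adjusted p = 0.382) and *gst-36* (-0.34, adjusted p = 0.0594), and highest in *gst-15* (0.47, adjusted p = 0.104) and *gst-12* (0.29, adjusted p = 0.0795), all in limma. In *gst-38*, expression was -1.15, -1.43 and -2.0 with pRJ-Fr.5 and -0.93, -0.98 and -0.78 in control. In *gst-9*, it was -3.84, -4.02 and -4.63 with pRJ-Fr.5 and -3.68, -3.53 and -3.65 in control. In both genes the control arrays were close together, whereas the treated arrays spread widely, with pRJ-Fr.5 replicate 3 the lowest. At the other end, 4 of the 46 genes, *gst-1*, *gst-7*, *gst-16* and *gst-43*, had a 95% interval that lay wholly within 0.2 of no change. Expression of *gst-7* was 4.18, 4.18 and 4.15 with pRJ-Fr.5 and 4.15, 4.12 and 4.18 in control.

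The transferases reported to depend on SKN-1 were also taken as a list of 8 genes. Of these, 7 were on the array and 5 had a value, and 0 passed limma's adjusted test, 0 passed the methods' t-test at its unadjusted threshold, and 3 had an unadjusted p under 0.05 in limma. Over all genes, these shares were 29.8%, 39.7% and 43.9%. Their fold changes were -0.63 in *gst-38*, -0.52 in *gst-10*, -0.18 in *gst-5*, 0.02 in *gst-7* and 0.29 in *gst-12*. Thus 3 were negative and 2 positive, and the median was -0.18.

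Many of these genes lie side by side, and 25 of them form 4 clusters, defined as runs in which neighbouring glutathione genes are at most 3 places apart in the gene order of the WBcel235 annotation. The clusters hold 22 genes with a value. For comparison, 19.1% of all genes fell and 10.7% rose in limma's adjusted test. The first lies on chromosome II, where *gst-6*, *gst-7*, *gst-8* and *gst-9* follow each other. In this cluster *gst-6* fell, while the interval of its neighbour *gst-7*, -0.11 to 0.15, does not reach that of *gst-6*, -0.62 to -0.23. The difference between the neighbours was not tested. In the next cluster on the same chromosome, which holds 9 genes, 7 had a value and none passed limma's adjusted test, with fold changes of -0.33 in *gst-19* to 0.47 in *gst-15*. In another, also of 9 genes, *gst-26* and *gst-28* fell, and the next gene, *gst-29*, had a fold change of 0.26 (adjusted p = 0.0695 in limma), with 4 negative and 5 positive values in all. On chromosome IV, *gst-3* and *gst-2* had -0.13 and -0.27. Neighbours therefore had values of both signs in the clusters on chromosome II, but no positive value there passed the test. In the first cluster the only positive value was that of *gst-7* (0.02). It turned negative with a shift to the percentile of kept probes, so its sign was not determined. Such neighbours are often similar in sequence, and cross-hybridization between them was not tested.

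**Figure D3:**
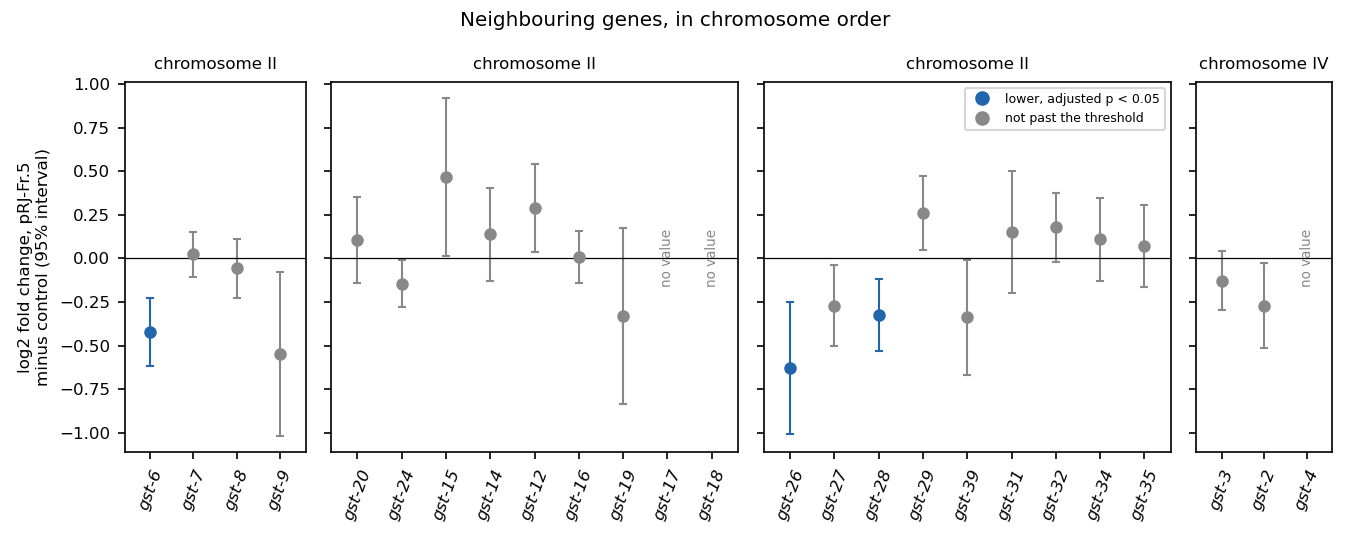
Log2 fold change (pRJ-Fr.5 minus control) with its 95% interval for glutathione S-transferase genes that lie side by side, in chromosome order, 1 panel per cluster. Blue points are *gst-6*, *gst-26* and *gst-28*, which fell, and "no value" marks genes without a probe above background on all 6 arrays, or, for *gst-4*, without a probe in the tables used.

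The probes of 6 genes on the array gave no value because they were not above background on all 6 arrays. The probe of *gst-37* and the 5 probes of *gst-18* were above background on 0 of 6 arrays, and that of *gst-17* on 1 control array. The probe of *gst-25* was above background on 1 pRJ-Fr.5 array and on 3 control arrays, with -7.10, -7.99 and -8.51 on the pRJ-Fr.5 arrays and -7.19, -6.61 and -5.34 on the control arrays. A fit that required detection in only 1 of the groups let *gst-25* in through the control arrays alone. Such a filter favours a negative fold change, so no test from it is given for this gene. The signals also lie near background. The probes of *gst-30* and *gst-13* failed on control replicate 3 alone. In *gst-13*, that array read -5.38, against -0.14 and 0.16 on the other controls and -0.19, -0.18 and -0.32 on the pRJ-Fr.5 arrays. Without it, the fold changes were -0.24 in *gst-13* (adjusted p = 0.177 in limma) and 0.02 in *gst-30* (adjusted p = 0.896 in limma).

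The arrays of the pRJ-Fr.5 group did not differ from control to the same extent. In 30 of the 46 glutathione genes (65.2%), pRJ-Fr.5 replicate 1 was the treated array nearest to the mean of the controls, as it was in 51.3% of all genes. In 24 genes (52.2%), pRJ-Fr.5 replicate 3 was the farthest, as it was in 48% of all genes. That array shared slide 2 with control replicate 3, and the part of the slide in this was not tested. When pRJ-Fr.5 replicate 1 was left out, 16 glutathione genes (34.8%) passed, 6 higher and 10 lower, against 34.3% of all genes. These 16 held 6 of the 7 genes named above, without *gst-40*. When another array was left out, 1 to 3 glutathione genes passed, against 17.1% to 24.1% of all genes. The number of changed genes therefore depended on single arrays, and *gst-6* alone passed in each of these 6 fits. The share of glutathione genes that passed was below that of all genes in every alternative run except the one without pRJ-Fr.5 replicate 1.

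**Figure D4:**
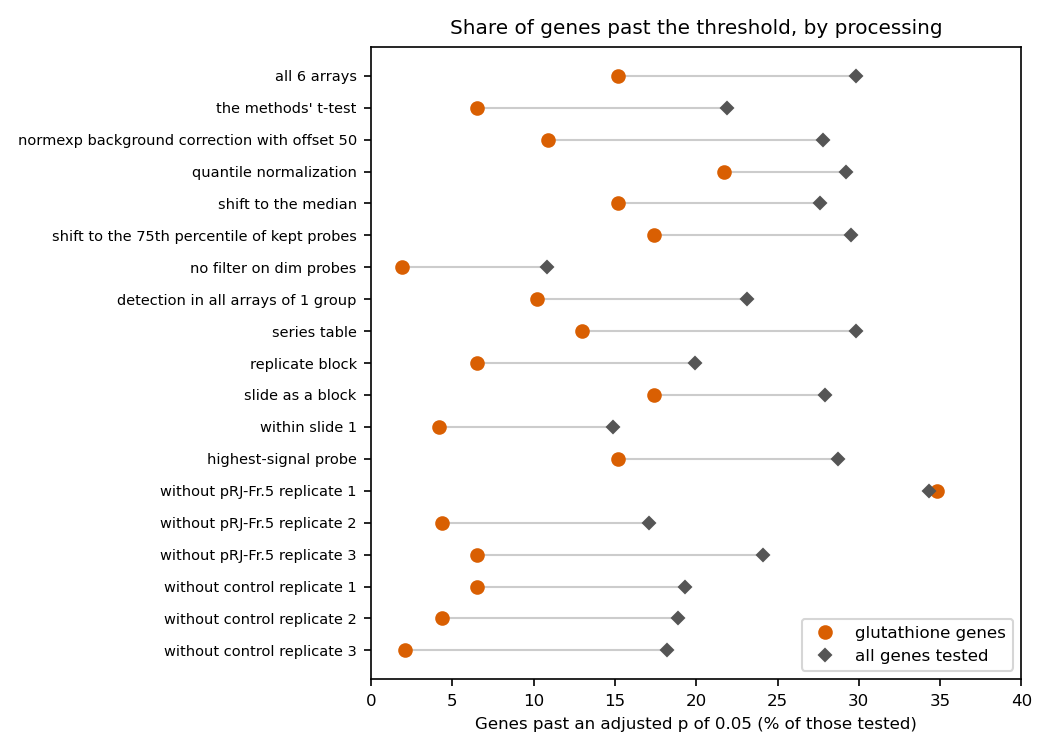
Share of genes past an adjusted p of 0.05 (% of those tested) among glutathione genes (orange circles) and among all genes (gray diamonds), for the analysis of all 6 arrays and for 18 alternatives in processing. The orange circle lies left of the gray diamond in all rows but the one without pRJ-Fr.5 replicate 1, where the shares are 34.8% and 34.3%.

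Genes around the pathway were then examined from 6 lists, which hold 63 genes with a value. Of these, 12 passed (19%, against 29.8% of all genes), 3 higher and 9 lower. Among other enzymes that use glutathione, 2 of 14 fell (14.3%, against 19.1% of all genes). These were the glutathione peroxidase genes *gpx-5* (-0.37, SE 0.08, adjusted p = 0.0181 in limma) and *gpx-1* (-0.22, SE 0.07, adjusted p = 0.0453 in limma). Expression of *gpx-5* was 2.33, 2.08 and 2.14 with pRJ-Fr.5 and 2.47, 2.63 and 2.57 in control, so that every treated array was lower, with pRJ-Fr.5 replicate 1 nearest to the controls. Without control replicate 3 neither gene passed (adjusted p = 0.0663 for *gpx-5* and 0.109 for *gpx-1* in limma), and the same was so without control replicate 2 or pRJ-Fr.5 replicate 2, with the methods' t-test and with the replicate number as a block. Of the 18 alternatives that gave a test, *gpx-5* passed in 11 and *gpx-1* in 5. In the same list, the glutaredoxin gene *glrx-3* had the highest value, 0.92 (adjusted p = 0.306 in limma), which came from control replicate 3 at 0.06, whereas the other controls were at 2.46 and 2.66 and the pRJ-Fr.5 arrays at 2.60 to 2.69.

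In the thioredoxin system, the parallel route for reducing disulfides, 1 of 5 genes changed (20%, against 29.8% of all genes). The thioredoxin gene *trx-3*, which is expressed in the intestine, fell by 0.52 (SE 0.08, adjusted p = 0.00398 in limma). Its expression was -2.14, -1.93 and -1.90 with pRJ-Fr.5, against -1.47, -1.42 and -1.51 in control. The separation was wide in relation to the spread within groups, and the gene passed in all 18 alternatives that gave a test.

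Cysteine limits glutathione synthesis and is made from methionine through S-adenosylmethionine and homocysteine. The list for cysteine and methionine supply does not separate genes that make cysteine from genes that use it. Of its 14 genes with a value, 5 fell and none rose in limma's adjusted test. Negative fold changes were found in 13 of the 14, and the median was -0.14. The share called was 35.7%, against 29.8% of all genes, of which 19.1% fell, and 7319 of all 16049 fold changes were negative. The S-adenosylmethionine synthetase genes *sams-1* and *sams-5* fell by 0.43 and 0.42 (adjusted p = 0.00433 and 0.00301 in limma). The gene of adenosylhomocysteinase, *ahcy-1*, fell by 0.36 (adjusted p = 0.0390 in limma), that of cystathionine gamma-lyase, *cth-2*, by 0.43 (adjusted p = 0.0242 in limma), and *cysl-1*, of the cysteine synthase family, by 0.22 (adjusted p = 0.0399 in limma). Expression of *sams-5* was 1.55, 1.55 and 1.56 with pRJ-Fr.5, against 1.93, 1.94 and 2.04 in control, and that of *cth-2* was 3.01, 2.72 and 2.68 with pRJ-Fr.5, against 3.12, 3.30 and 3.30 in control. Both genes were lower on every treated array. The *sams* genes are close copies of each other, and their probes may not separate them. Under the 4 other scalings, 12 or 13 of the 14 values were negative, and 3 to 5 genes fell. Without control replicate 3, 11 were negative, and 2 fell, *sams-1* and *sams-5*.

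In the list for the export of glutathione conjugates (*mrp-1* to *mrp-8* and *hmt-1*), 0 of 9 genes passed limma's adjusted test, with fold changes of -0.31 to 0.21. Before adjustment, 2 genes were past 0.05 in limma and 3 in the methods' t-test. Over all genes, the corresponding shares were 29.8%, 43.9% and 39.7%. Whether each gene of the list exports such conjugates was not tested. Among 17 regulators of SKN-1, 3 rose and none fell in limma's adjusted test, and 16 of 17 fold changes were positive, with a median of 0.16. The list does not separate genes that promote SKN-1 activity from genes that restrain it. The share called was 17.6%, against 29.8% of all genes, of which 10.7% rose, and 8730 of all 16049 fold changes were positive. The gene *wdr-23*, whose product directs SKN-1 to degradation, rose by 0.23 (SE 0.06, adjusted p = 0.0376 in limma), *eor-1*, which encodes a zinc finger factor, by 0.22 (SE 0.05, adjusted p = 0.0266 in limma), and *ogt-1*, the O-GlcNAc transferase gene, by 0.24 (SE 0.06, adjusted p = 0.0321 in limma). Expression of *wdr-23*, as the mean over 5 probes, was -0.65, -0.63 and -0.76 with pRJ-Fr.5 and -0.87, -0.95 and -0.89 in control, with every treated array higher. Under all 4 other scalings 16 values were positive, but none of the 3 genes passed when control replicate 1, 2 or 3 or pRJ-Fr.5 replicate 2 was left out. Of 4 other genes reported to depend on SKN-1, 1 fell (25%, against 19.1% of all genes). This was *sdz-8* (-0.32, SE 0.08, adjusted p = 0.0222 in limma). It passed in 10 of the 18 alternatives that gave a test. It did not pass with the arrays shifted to the median (-0.28, adjusted p = 0.0553 in limma) or in 4 of the 6 fits that left out an array, among them the fit without control replicate 3 (-0.29, adjusted p = 0.0792 in limma).

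**Figure D5:**
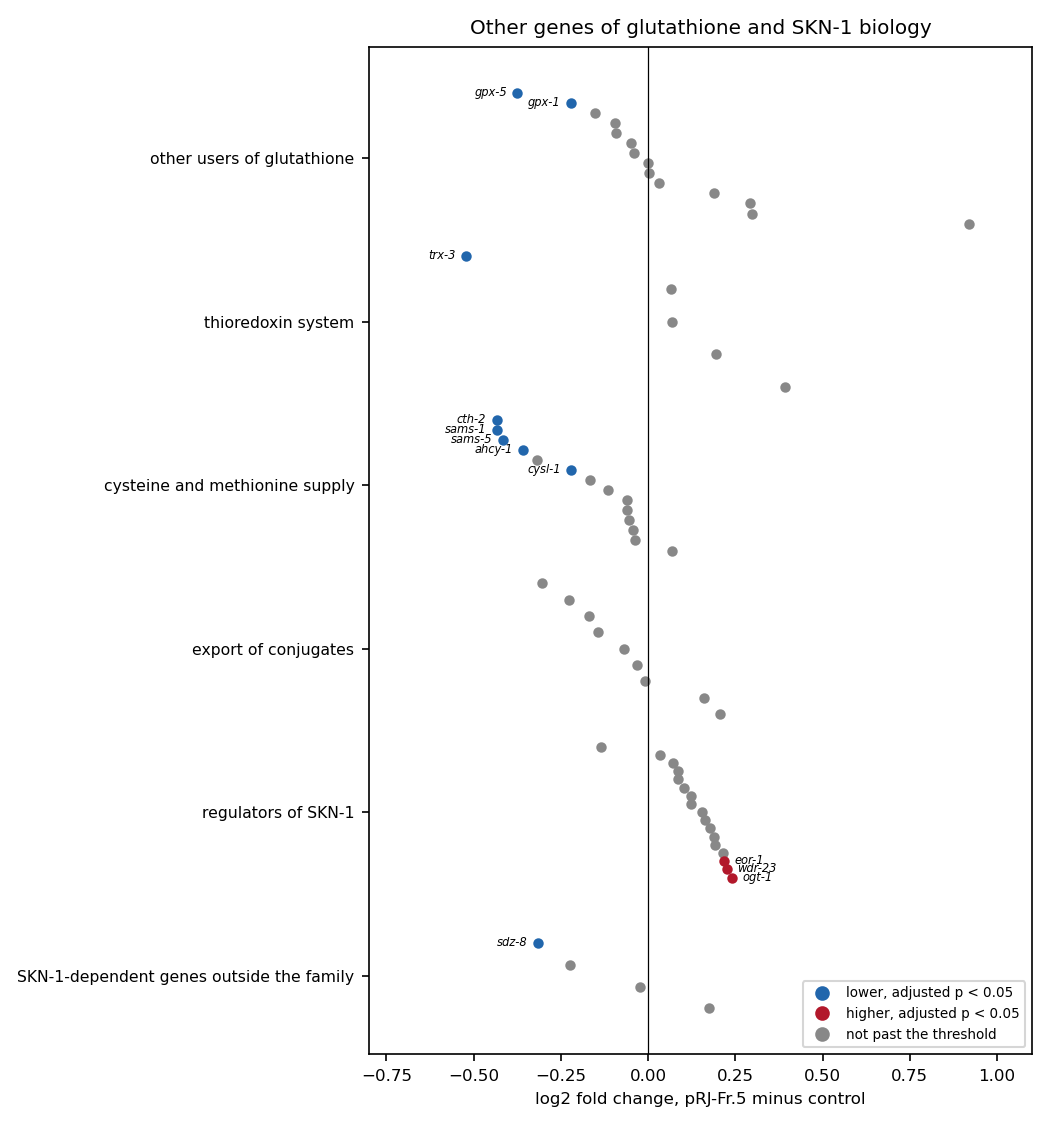
Log2 fold change (pRJ-Fr.5 minus control) of 63 further genes of glutathione and SKN-1 biology in 6 lists, 1 point per gene, ordered by value within each list. The 9 genes that fell (blue) and the 3 that rose (red) are named, and the gray point at 0.92 is *glrx-3*.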

How the data were processed

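RNA of 6 samples of whole worms, 3 with pRJ-Fr.5 and 3 controls, was hybridized to single-dye Agilent arrays. For each array the authors deposited spot intensity values that Agilent Feature Extraction 10.7.1.1 had corrected for background; arrays had not been scaled to each other. The series table, also deposited, holds a linear ratio that equals the intensity over the 75th percentile of its array to within 0.001 in 100% of values, and it served as an alternative.

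Control spots and outlier spots (239 over the 6 arrays, 207 of them on control replicate 3) were removed and the remaining spots of each probe averaged. On the log2 scale, each array was then lowered by its 75th percentile. Probes well above background on all 6 arrays were kept (27518 of 43603), and kept probes were averaged to 1 value per gene. No spot was saturated. The number of arrays limits the precision. Sequence names linked 80.0% of probes to symbols of the RefSeq annotation (WBcel235). Since the array design used another build, coordinates are left out, and no sequences were used here.

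Groups were compared by a linear model without a block in limma 3.58.1 (R 4.3.3; functions lmFit and eBayes), with Benjamini-Hochberg adjustment over all genes. The test was checked on simulated data. Lists are described by counts and medians only. The genes and lists, which were written from general knowledge, were chosen with earlier results of these data known. Named with full values were the genes that passed, *gcs-1*, *gss-1*, *gsr-1* and *skn-1*, genes without a value, and the genes of the further lists that passed; other genes given with values per array (*gsto-2*, *gstk-1*, *gstk-2*, *gst-7*, *gst-9*, *gst-10*, *gst-38* and *glrx-3*) were chosen after their values were seen. Alternatives were the methods' t-test, normexp with an offset of 50, quantile normalization, shifts to the median and to the percentile of kept probes, detection in 1 group only or no filter, use of the series table, blocks for the replicate number and the slide, each of the 2 slides alone, the highest-signal probe, probes tested singly, and each array left out. With an array left out, the filter used the arrays that were left.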

Additional observations from a re-analysis of the deposited data

How the results depend on the processing

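Over 34 named genes and their alternatives, 612 values with a test were computed, of which 428 stayed on the same side of zero and of the threshold, 152 of genes that passed no longer passed, 23 newly passed and 9 turned in sign. Slide 2 gave 34 values without a test, and 25 of them moved by more than the spread between arrays. The cause was not tested, except where a construction with fewer arrays shows it. Of the 18 alternatives with a test, the further genes lost the threshold in 13 (*gpx-1*), 12 (*ahcy-1*, *cysl-1* and *wdr-23*), 10 (*ogt-1*), 8 (*cth-2* and *sdz-8*) and 7 (*gpx-5* and *eor-1*), while *trx-3*, *sams-1* and *sams-5* passed in all 18. Glutathione genes that newly passed did so in 3 (*gst-9*, *gst-27*, *gst-29*, *gst-36* and *gstk-1*), 2 (*gst-2*, *gst-10* and *gst-12*) or 1 of them (*gst-15* and *gst-38*). The methods' t-test selected 11 glutathione genes at the unadjusted threshold and 3 after adjustment (0 higher, 3 lower), and 7 of the further genes (4 lower); *gst-26* (-0.63), *gsto-1* (-0.50), *gst-28* (-0.33), *gst-40* (-0.24) and *gst-41* (0.41) did not pass it. Without a filter on dim probes, 1 glutathione gene passed (0 higher, 1 lower), with 2678 of all genes (556 higher) and 3 further genes (0 higher, 3 lower), and *gst-26* (-0.63), *gsto-1* (-0.50), *gst-28* (-0.33), *gst-23* (-0.31), *gst-40* (-0.24) and *gst-41* (0.41) did not. With detection in all arrays of 1 group, 0 glutathione genes were higher, and *gst-40* (-0.24) and *gst-41* (0.41) did not pass.

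Under other scalings, the split of glutathione genes (higher, lower) was 2 and 3 with normexp, 2 and 8 with quantile normalization, 4 and 3 with a shift to the median and 0 and 8 with the percentile of kept probes, against 1 and 6. Values that lost the threshold were *gst-28* (-0.28), *gst-23* (-0.18) and *gst-40* (-0.18) with normexp, *gst-28* (-0.28) with quantile normalization, *gsto-1* (-0.46), *gst-28* (-0.29) and *gst-40* (-0.20) with the median, and *gst-40* (-0.27) and *gst-41* (0.38) with the percentile of kept probes. With the median, *gcs-1* (0.012) and *gss-1* (0.026) turned positive, and 5 further genes were lower; with the percentile of kept probes 1 further gene was higher. *gst-40* also lost it with the series table (-0.24) and the highest-signal probe (-0.24).

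Replicate numbers gave no clear pairing of the arrays, although deviations from means of 3 arrays cannot exclude one. Deviations of arrays with the same number correlated at -0.24, 0.05 and -0.03, and of different numbers at -0.13 to 0.15. With the replicate block, 3 glutathione genes (2 lower), 724 of all genes (higher) and 4 further genes (0 higher, 4 lower) passed, and *gst-26* (-0.63), *gsto-1* (-0.50), *gst-28* (-0.33) and *gst-40* (-0.24) did not. With the slide as a block, 2 glutathione genes were higher, and *gst-40* (-0.24) did not pass. Within slide 1 (2 arrays a group), 2 glutathione genes (1 lower), 2802 of all genes (563 higher) and 3 further genes (0 higher, 3 lower) passed; values were -0.51 for *gst-26*, -0.33 for *gsto-1*, -0.26 for *gst-28*, -0.33 for *gst-23*, -0.29 for *gst-40*, 0.35 for *gst-41*, 0.083 for *gcs-1* and 0.085 for *gss-1*. Slide 2 (1 array a group, no test) gave -0.87 for *gst-26*, -0.83 for *gsto-1*, -0.30 for *gst-6*, -0.45 for *gst-28*, -0.15 for *gst-40*, -0.25 for *gcs-1*, -0.21 for *gss-1*, -0.16 for *gsr-1* and 0.35 for *skn-1*.

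With single arrays left out, 1 to 16 glutathione genes passed (0 to 6 higher, 1 to 10 lower), 2750 to 5509 of all genes (538 to 2179 higher, 2212 to 3330 lower) and 3 to 18 further genes (0 to 7 higher, 3 to 11 lower). Fold changes ranged from -0.82 to -0.52 for *gst-26*, -0.62 to -0.38 for *gsto-1*, -0.46 to -0.34 for *gst-6*, -0.39 to -0.27 for *gst-28*, -0.35 to -0.26 for *gst-23*, -0.30 to -0.20 for *gst-40*, 0.31 to 0.51 for *gst-41*, -0.068 to 0.047 for *gcs-1*, -0.065 to 0.042 for *gss-1*, -0.0010 to 0.086 for *gsr-1* and 0.14 to 0.30 for *skn-1*. Without pRJ-Fr.5 replicate 3, *gcs-1* was 0.0085 and *gss-1* was 0.028, and without pRJ-Fr.5 replicate 1, *gsr-1* was -0.0010.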
